A study of Mus musculus with 46 samples.

Results

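The late-rising genes of array type B are probe sets whose signal in wild type mouse lung was near or below its 0 h level after 48 h in oxygen and higher at 72 h. They were chosen from the wild type arrays alone. A probe set was kept when its mean log2 intensity was at least 0.8 higher at 72 h than at 48 h, when its 48 h mean lay less than 0.5 above its 0 h mean, and when its mean intensity at 72 h was at least 500. Of 10581 array B probe sets with 1 gene symbol, 88 met the rule, which stand for 86 genes, since Ccny and Cald1 have 2 probe sets each. Before the log2, a constant near the 25th percentile of the array type (126.1) was added to each intensity, here and in all log2 values below. All 3 array types together hold 36701 probe sets without controls. Lungs came from Nrf2 mutant mice, either unexposed (0 h) or kept in 100% oxygen for 24, 48 or 72 h, and from wild type mice at the same times, and their total RNA was hybridised to array types A, B and C. Each of the 8 groups had 2 arrays of type B, replicates 1a and 1b, so 16 arrays enter here. The sources used here do not give the strain, sex or age of the mice, the kind of Nrf2 mutation, or whether the replicates are different animals, and p-values here measure the spread between these samples, which may be technical.

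Breathing pure oxygen injures the thin epithelium and the capillaries of the alveoli, and the lung answers with stress, repair and inflammatory programmes that unfold over days. The Nfe2l2 gene encodes Nrf2, which switches on antioxidant and detoxification genes through a short DNA motif, the antioxidant response element. The late-rising genes are not a known pathway. They hold a receptor of tissue injury, long non-coding RNAs that carry small nucleolar RNAs in their introns, and genes of translation, ubiquitin ligation, RNA processing, lipid metabolism and membrane traffic. Small nucleolar RNAs are released from introns of their host genes and guide chemical modification of ribosomal RNA.

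Nfe2l2 itself ranged from 302.5 to 448.4 in intensity on 7 mutant arrays of type A, against 2428 to 4488 on 7 wild type arrays, and whether its probes cover the mutated stretch is unknown. Alveolar type 2 markers were bright on all arrays of type A, with a sum over 5 genes of 44647 to 88443. No 2 arrays held identical values. On array type B, replicates of a group correlated at r = 0.944 to 0.970 over probe sets. The 2 mutant arrays at 0 h stood apart from the rest, with a mean correlation with the other arrays of 0.897 to 0.903 against 0.934 to 0.950 for the other 14. Their Gapdh 3' to 5' signal ratio, which goes up as RNA breaks down, was 1.67 to 1.95, against 0.858 to 1.41. Comparisons with these arrays are therefore set beside comparisons without them. In whole lung, fewer cells of a type and less RNA per cell cannot be told apart.

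In wild type, the 72 h minus 48 h difference of the 88 members was log2 0.80 to 2.15, with a median of 1.0. These values chose the members and carry no test. The largest belonged to Tmem181a (log2 2.15), the cytokine signalling inhibitor Socs5 (log2 2.08) and the nucleolar protein Sdad1 (log2 2.07). Nipsnap3b, Trnau1ap and Srp72 lay just inside the threshold at log2 0.80 each, and Gnas, 3110082I17Rik and Gprc5c just outside it at log2 0.7997, 0.7996 and 0.7989. For the limit on the 48 h minus 0 h difference, Tnfrsf12a (log2 0.4958), Nol11 (log2 0.48) and Seh1l (log2 0.48) lay just inside, and Clip4 (log2 0.60), Slc38a2 (log2 0.62) and Sfswap (log2 0.66) just outside. For the limit on intensity, Hrh3 (502), Cys1 (518) and Trmu (521) lay just inside, and Pphln1 (472), Ripor1 (463) and Phf3 (463) just outside.

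The wild type profiles ranged from a late rise to a dip with a return, and some members were also up at 24 h. A line at 0.5 above the 0 h level, chosen after the values were seen, divides them by their 72 h mean. In 61 of the 88 members the 72 h mean stood at least 0.5 above the 0 h mean on the log2 scale, so that these genes ended above their level in unexposed lungs. In the other 27 the 72 h mean lay less than 0.5 above it or below it, and their median 48 h minus 0 h difference was log2 -0.90, so that these had dipped at 48 h and returned. Insig1, which holds the sterol-sensing machinery in the endoplasmic reticulum, was of the returning kind, with log2 -1.69 at 48 h and -0.22 at 72 h against 0 h in wild type. Esco1, a cohesin acetyltransferase, was alike, with log2 -1.46 and -0.14. Fam172a had the lowest 48 h minus 0 h difference of all members and was still lower at 72 h than at 0 h (log2 -1.86 and -1.01). Wild type at 48 h was the lowest of the 4 wild type means in 52 of 88 members, where it was the lowest in 21.7% of all 8948 tested probe sets of array B. At 72 h both wild type arrays were above both 48 h arrays in 86 members, against 23.3% of all tested probe sets, and above every other wild type array in 57, against 9.15%. The rule sets no limit at 24 h, and 72 h was the highest of the 4 wild type means in 74 members. At 24 h the wild type mean stood at least 0.5 above 0 h in 13 members, against 9.95% of all tested probe sets. In wild type, the Socs5 probe set that met the rule gave 1001 and 589.5 at 24 h, 188 and 189 at 48 h, and 1207 and 1199 at 72 h. Stk38l gave 319 and 433.5 at 24 h, 94 and 103 at 48 h, and 572 and 685.5 at 72 h. The rule fixes most of these counts, and they describe the members only.

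**Figure D1:**
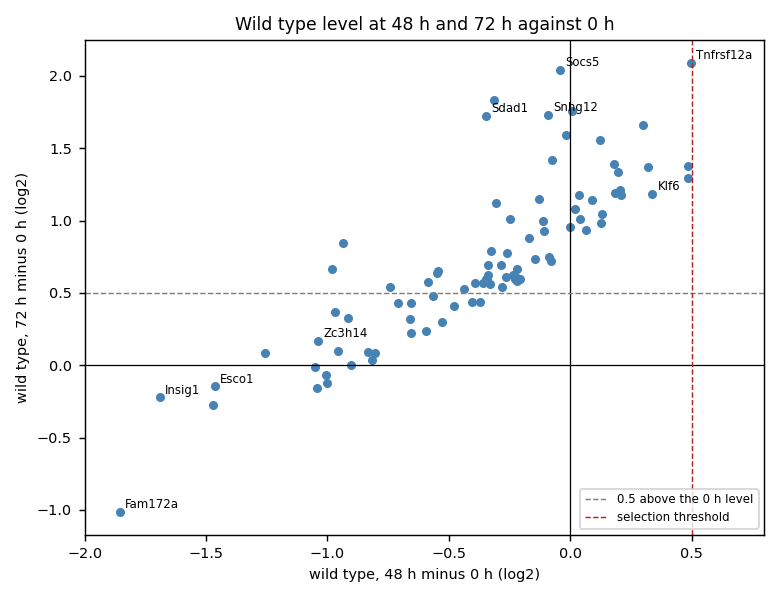
Each point is 1 of the 88 late-rising probe sets, with the wild type 48 h minus 0 h difference on the horizontal axis and the wild type 72 h minus 0 h difference on the vertical axis, both in log2 units of group means of 2 arrays. The red dashed line is the selection threshold at 0.5, and the grey dashed line divides the 61 members that stood at least 0.5 above 0 h at 72 h from the 27 that did not. Tnfrsf12a sits at the top right and Fam172a at the bottom left.

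The question put to the mutant arrays, which the rule did not use, was whether these genes were also higher at 72 h than at 48 h there. The test was limma over all 8948 array B probe sets that passed a filter on dim signal. In the mutant, 12 of the 88 members (11 genes) rose at an adjusted p under 0.05, 0 fell and 76 were not called. In all tested probe sets of the array, 0.983% rose and 1.8% fell. An unadjusted p under 0.05 in either direction was found in 43 members. For such unadjusted counts, here and below, the share over all tested probe sets is not given. All 88 members passed the filter, and 86 would have passed on the mutant arrays alone, the exceptions being Sdad1 and Mrs2. The members' median difference in the mutant was log2 0.57, against 0.001 over all tested probe sets. It was above 0 in 73 members, against 50.1% of all tested, and at least 0.5 in 49, against 8.3%. Both mutant 72 h arrays lay above both 48 h arrays in 53 members, against 23.2%, and below them in 6, against 24%. The 61 members that ended above their wild type 0 h level had a median of log2 0.64 in the mutant, and 11 of them rose. The 27 that had dipped and returned had a median of log2 0.36, and 1 rose. The difference between these sets was not tested.

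The count of 12 rested on few arrays. Leaving out mutant 72 h replicate 1a gave 6, with 5 higher and 1 lower. Leaving out mutant 72 h replicate 1b gave 7, and leaving out mutant 48 h replicate 1b gave 4. When the 4 arrays of the compared groups were fitted alone it was 3. Snhg12, Tnfrsf12a and Rlim kept their call in all 14 alternatives that gave them a value. The call of Acot1 was kept in 13, those of 1110038B12Rik and the called Cald1 probe set in 11, and those of Stk38l and Qk in 10. Zfas1 kept it in 9, the brighter Ccny probe set in 8, Trmt6 in 6 and the dimmer Ccny probe set in 5. These last 4 lost the call when any 1 of the 4 arrays at 48 h and 72 h was left out. 1110038B12Rik, Cald1, Stk38l and Qk lost it without mutant 72 h replicate 1a or mutant 48 h replicate 1b, Stk38l also when the other 72 h array was left out, and Qk when the other 48 h array was.

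**Figure D2:**
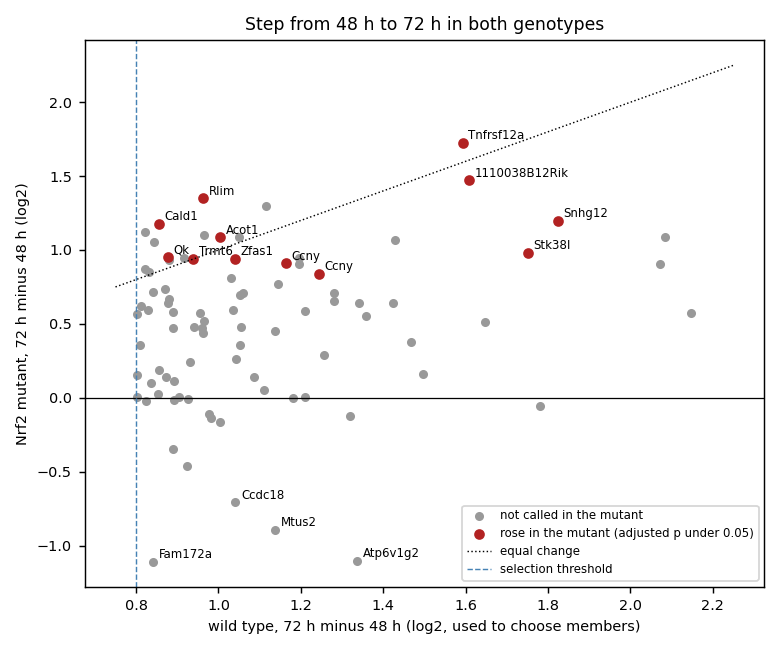
Each point is 1 member, with its 72 h minus 48 h difference in wild type on the horizontal axis and in the Nrf2 mutant on the vertical axis, both in log2 units. Red points are the 12 members that rose in the mutant at an adjusted p under 0.05, the dotted line marks equal differences in both genotypes and the blue dashed line the threshold of 0.8 that chose the members. Most points lie below the dotted line and above 0, and Fam172a, Atp6v1g2, Mtus2 and Ccdc18 lie far below 0.

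Tnfrsf12a gave the largest mutant difference between 72 h and 48 h among the members. It encodes Fn14, the receptor of the cytokine TWEAK, which is scarce in healthy tissue and made in injured epithelium and other damaged tissue. In the mutant its intensity was 2873 and 2085 at 0 h, 3173 and 2648 at 24 h, 4356 and 3800.3 at 48 h, and 14129.8 and 13349.7 at 72 h. In wild type it was 1482 and 1847 at 0 h, 2486 and 2324 at 24 h, 2607 and 2182 at 48 h, and 7787 and 7123 at 72 h. In both genotypes the 72 h arrays were above all earlier ones, and the mutant 72 h arrays were the brightest of the 16. The mutant difference between 72 h and 48 h was log2 1.72 ± 0.19 (SE, adjusted p = 0.00108 in limma), and the wild type one was log2 1.59. Against the 24 h arrays the mutant rose by log2 2.20 (adjusted p = 0.000172 in limma).

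The other members with a role in cytokine or innate immune signalling did not pass the test between 48 h and 72 h in the mutant. Socs5, a suppressor of cytokine signalling, differed by log2 1.09 in the mutant and 2.08 in wild type, and its 2 mutant arrays at 48 h lay far apart, at 995 and 168. The name of this probe set carries a suffix (f) that marks probes which may match several transcripts. The large wild type value was seen in this probe set only. The other tested Socs5 probe sets differed by log2 0.29 and -0.05 in wild type and by 0.60 and 0.13 in the mutant, not called. Pstpip2, a membrane-bending protein of macrophages whose loss causes autoinflammation in mice, differed by log2 0.87 in the mutant and 0.82 in wild type and missed the threshold narrowly (adjusted p = 0.0523 in limma). Tirap, an adaptor of Toll-like receptors, differed by log2 0.85 in the mutant and 0.83 in wild type. Wfdc17, a secreted protease inhibitor-like protein of macrophages, differed by log2 0.71 in the mutant and 1.28 in wild type, and rose by log2 1.32 in the mutant against 24 h (adjusted p = 0.00256 in limma). Irak1bp1, which binds the kinase of interleukin 1 receptors, differed by log2 -0.02 in the mutant and 0.82 in wild type.

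Of 5 long non-coding RNA genes among the members, 3 rose in the mutant, and these 3 are the ones in which the RefSeq annotation places small nucleolar RNA genes. Snhg12 contains 4 of them, Zfas1 contains 3 and 1110038B12Rik contains 2. Of 175 annotated long non-coding RNA genes with a tested probe set on array B, these 3 included, 11 (6.29%) contain a small nucleolar RNA gene. Snhg12 had mutant intensities of 1938 and 2109.7 at 0 h, 652 and 676 at 24 h, 1231 and 1269 at 48 h, and 3119 and 2931 at 72 h. Its wild type intensities were 997 and 1060.4 at 0 h, 882 and 975 at 24 h, 929 and 986 at 48 h, and 4230.0 and 3244 at 72 h. The wild type signal was flat until 48 h, while the mutant signal was lower at 24 h than at 0 h and then climbed, and at 72 h the mutant arrays lay below the wild type ones. Snhg12 rose by log2 1.20 ± 0.16 (SE, adjusted p = 0.00242 in limma) in the mutant, beside log2 1.82 in wild type.

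1110038B12Rik followed a like course, with mutant intensities of 4313 and 3029 at 0 h, 843 and 1071 at 24 h, 2027 and 1488 at 48 h, and 5979.7 and 4247 at 72 h. In wild type it gave 1695 and 1185 at 0 h, 1499.7 and 1249.6 at 24 h, 1536 and 1279.6 at 48 h, and 4658 and 4413 at 72 h. The mutant 0 h arrays, which stood apart, overlapped the 72 h arrays, so the mutant rise counts from 24 h and 48 h only. The rise from 48 h was log2 1.47 ± 0.25 (SE, adjusted p = 0.00882 in limma), beside log2 1.61 in wild type. The name of this probe set carries a suffix (f) that marks probe sets whose probes may match several transcripts. The other 2 probe sets of this gene on array B did not move with it. They gave log2 0.07 and -0.45 in the mutant and 0.03 and -0.07 in wild type. Zfas1 had mutant intensities of 4273 and 3318 at 0 h, 978 and 890.2 at 24 h, 1479 and 1373 at 48 h, and 2782 and 2913 at 72 h. On the wild type arrays it stood at 2019 and 1477 at 0 h, 1567 and 1604 at 24 h, 1649 and 1222 at 48 h, and 3029 and 3079 at 72 h. Here too the mutant was dimmest at 24 h and the 0 h arrays were the brightest. Zfas1 rose by log2 0.94 ± 0.19 (SE, adjusted p = 0.0236 in limma) from 48 h to 72 h in the mutant, beside log2 1.04 in wild type.

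Mir22hg, the host gene of the microRNA Mir22, differed by log2 0.58 in the mutant and 0.96 in wild type between 72 h and 48 h and was not called there, but rose by log2 0.75 against 24 h in the mutant (adjusted p = 0.0325 in limma). AU040972, a long non-coding RNA gene with neither kind of small RNA inside it, differed by log2 0.01 in the mutant and 0.90 in wild type.

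The start regions of the 3 hosts are shown because all of them rose in the mutant between 48 h and 72 h. Each window runs from 250 bases before to 50 after the annotated start, 5′ to 3′ on the strand of the gene, from RefSeq on GRCm38.p6. Snhg12 lies at chr4:132308428-132308727 on the plus strand, 1110038B12Rik at chr17:34952422-34952721 on the minus strand and Zfas1 at chr2:167062684-167062983 on the plus strand. Capitals mark a match to the core of the antioxidant response element (TGANNNNGC on either strand) or to the TATA box (TATAAA).
Snhg12: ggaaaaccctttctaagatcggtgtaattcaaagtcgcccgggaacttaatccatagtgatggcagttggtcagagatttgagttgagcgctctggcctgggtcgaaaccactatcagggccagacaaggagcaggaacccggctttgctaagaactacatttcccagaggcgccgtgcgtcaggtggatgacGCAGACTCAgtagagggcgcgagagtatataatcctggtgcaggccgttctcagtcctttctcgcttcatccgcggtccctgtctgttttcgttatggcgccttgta
1110038B12Rik: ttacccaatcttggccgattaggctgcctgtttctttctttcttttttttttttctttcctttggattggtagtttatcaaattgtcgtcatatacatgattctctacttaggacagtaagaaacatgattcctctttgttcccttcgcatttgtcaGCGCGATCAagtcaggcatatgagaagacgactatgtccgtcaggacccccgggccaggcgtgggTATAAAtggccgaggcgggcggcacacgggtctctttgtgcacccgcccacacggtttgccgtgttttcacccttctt
Zfas1: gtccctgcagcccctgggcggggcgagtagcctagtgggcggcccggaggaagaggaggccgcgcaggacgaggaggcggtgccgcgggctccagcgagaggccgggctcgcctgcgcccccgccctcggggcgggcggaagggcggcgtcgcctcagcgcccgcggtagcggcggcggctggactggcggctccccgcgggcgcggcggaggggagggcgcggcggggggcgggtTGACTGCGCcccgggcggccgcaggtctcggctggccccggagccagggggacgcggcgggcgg
The core match begins 57 bases before the start in Snhg12, 93 before it in 1110038B12Rik and 14 before it in Zfas1, and 1110038B12Rik also has TATAAA 28 bases before its start. Of the 86 member genes, 69 had a start region in the RefSeq table, with the first listed one taken where there were several. The antioxidant response element core occurred in 36 of the 69 (52.2%) and in 41.4% of all 27025 start regions of the table. The AP-1 motif (TGANTCA) occurred in 2 member regions (2.9%) and in 7.93% of all, and it shares its opening letters with the core, so 1 stretch can match both. The STAT motif (TTCNNNGAA) occurred in 2 (2.9%) and in 8.47% of all, and TATAAA in 5 (7.25%) and 14.2%. Neither TTGCATCA, a motif of C/EBP and ATF factors, nor the NF-kappaB motif occurred in a member region, and they occurred in 0.929% and 0.144% of all. Both strands were searched, and a match describes letters in a window, not a site.

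**Figure D3:**
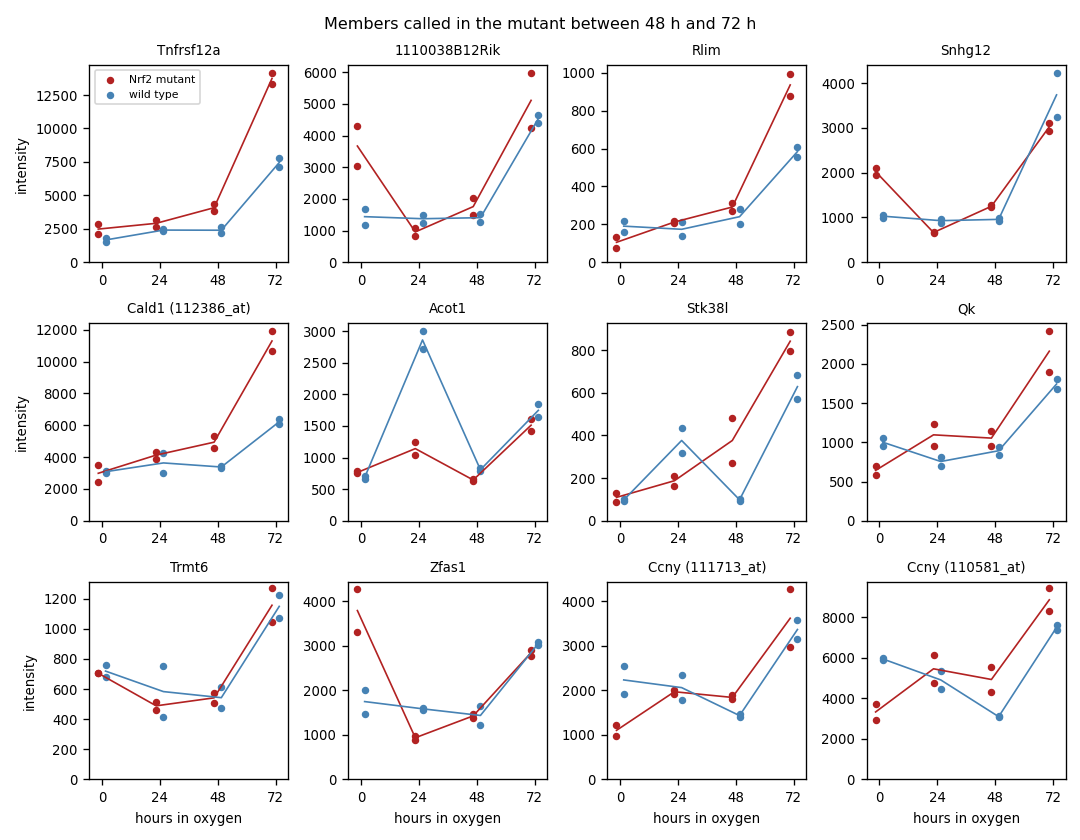
Each panel is 1 of the 12 members that rose in the mutant between 48 h and 72 h, with hours in oxygen on the horizontal axis and intensity on the vertical axis, which starts at 0. Points are single arrays, red for the Nrf2 mutant and blue for wild type, and lines join the means of 2 arrays. Tnfrsf12a, Cald1, Rlim, Stk38l, Qk and the brighter Ccny probe set are among those that end higher in the mutant. Snhg12, Zfas1 and Acot1 are among those that end higher in wild type. The 3 small nucleolar RNA hosts have bright mutant arrays at 0 h.

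Ribosome assembly and the mitochondrial ribosome were represented by 6 genes, of which 0 were called in the mutant between 48 h and 72 h in limma, although the difference was above 0 in 5. Trub2, a pseudouridine synthase that acts on mitochondrial RNA, was the brightest member in wild type at 72 h. Its mutant intensities were 10957 and 10049 at 0 h, 2721 and 2383 at 24 h, 7018 and 5443 at 48 h, and 10773 and 6714 at 72 h. Its wild type intensities were 3812 and 3998 at 0 h, 3495 and 2740.4 at 24 h, 4939 and 4090.3 at 48 h, and 9843 and 10239.8 at 72 h. The 2 mutant arrays at 72 h lay far apart and overlapped the 48 h range, and the difference was log2 0.45 in the mutant and 1.14 in wild type. From 24 h to 72 h Trub2 rose by log2 1.69 in the mutant (adjusted p = 0.00134 in limma). Sdad1, needed for export of the large ribosomal subunit in yeast, differed by log2 0.91 in the mutant and 2.07 in wild type. Nol12, a nucleolar RNA-binding protein, differed by log2 0.64 in the mutant and 0.88 in wild type. Nol11, a part of the small subunit processome, differed by log2 0.47 in the mutant and 0.89 in wild type. Mrps30, a protein of the mitochondrial ribosome, differed by log2 0.60 in the mutant and 0.83 in wild type, and Gpatch4, a nucleolar G-patch protein, by log2 -0.01 in the mutant and 0.93 in wild type.

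Among 7 genes of translation, transfer RNA and protein targeting, Trmt6 rose. Trmt6 is the partner subunit of the enzyme that methylates adenosine in the T loop of transfer RNAs. It had 509.8 and 573 on the mutant arrays at 48 h and 1269.9 and 1044 at 72 h, without overlap, and the difference was log2 0.94 ± 0.22 (SE, adjusted p = 0.0397 in limma), beside log2 0.94 in wild type. Denr, a factor that lets ribosomes start again after a short upstream reading frame, was among the 6 brightest members. In the mutant it gave 6871 and 7018 at 0 h, 2867 and 3632 at 24 h, 4951 and 4485 at 48 h, and 6047 and 6853 at 72 h. In wild type it gave 3830.3 and 5227 at 0 h, 4615 and 2846 at 24 h, 4409 and 2802 at 48 h, and 6388 and 7607 at 72 h. Its mutant 0 h arrays were at least as bright as its 72 h arrays, and its difference from 48 h to 72 h was log2 0.44 in the mutant and 0.96 in wild type. Eif2b3, a subunit of the factor that recharges eIF2, differed by log2 0.71 in the mutant and 1.06 in wild type, and rose by log2 0.88 in the mutant against 24 h (adjusted p = 0.0284 in limma). Lrrc59, a ribosome-binding protein of the endoplasmic reticulum, differed by log2 0.77 in the mutant and 1.14 in wild type. Srp72, a protein of the signal recognition particle, differed by log2 0.57 in the mutant and 0.80 in wild type. Trnau1ap, a partner of the selenocysteine transfer RNA, differed by log2 0.15 in the mutant and 0.80 in wild type. Trmu, which thiolates mitochondrial transfer RNAs, differed by log2 -0.14 in the mutant and 0.98 in wild type.

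Of 8 genes of messenger RNA processing and the nuclear pore, Qk rose. Qk, or Quaking, is an RNA-binding protein that steers splicing and RNA stability. Its mutant arrays gave 1149 and 959.7 at 48 h and 2427 and 1899.6 at 72 h, and the difference was log2 0.95 ± 0.19 (SE, adjusted p = 0.017 in limma), beside log2 0.88 in wild type. Both mutant 72 h arrays were also above both wild type ones, at 1805 and 1684. The other Qk probe sets gave log2 0.60, 0.38 and 0.14 in the mutant, not called, and 0.96, 0.43 and 0.52 in wild type. In the same order, their 72 h means were 4608, 1402 and 2336 in the mutant and 5042, 1313 and 2265 in wild type. Seh1l, a nucleoporin, differed by log2 0.62 in the mutant and 0.81 in wild type. Zc3h14, which binds poly(A) tails, differed by log2 0.59 in the mutant and 1.21 in wild type. The splicing factor Srsf6 differed by log2 0.26 in the mutant and 1.04 in wild type, and the reader of methylated adenosine Ythdf3 by log2 0.24 in the mutant and 0.93 in wild type. Jmjd6, an oxygenase that modifies splicing factors, differed by log2 0.10 in the mutant and 0.84 in wild type. A Jmjd6 probe set on array A differed by log2 0.35 in the mutant and 0.18 in wild type. Its wild type 48 h mean already stood log2 1.03 above 0 h. Thoc3, of the complex that couples transcription to RNA export, differed by log2 0.0 in the mutant and 1.18 in wild type, and Rsrc2, a protein rich in arginine and serine, by log2 -0.02 in the mutant and 0.89 in wild type.

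Ubiquitin ligation, autophagy and protein folding took 12 genes, of which Rlim rose and 11 were not called. Rlim is a ubiquitin ligase best known for starting X chromosome inactivation in mice. Its mutant intensities were 135 and 75.5 at 0 h, 217 and 207 at 24 h, 314 and 269 at 48 h, and 876 and 996 at 72 h. On wild type arrays it had 219 and 162 at 0 h, 209.8 and 138 at 24 h, 202 and 279 at 48 h, and 610.4 and 558 at 72 h. The signal was dim before 72 h in both genotypes, and the mutant 72 h arrays were the brightest. Rlim rose by log2 1.35 ± 0.19 (SE, adjusted p = 0.00342 in limma) in the mutant, beside log2 0.96 in wild type. Another probe set of Rlim on array A did not move with it (log2 -0.40 in the mutant, adjusted p = 0.191 in limma, and -0.06 in wild type). A further one on array C differed by log2 0.17 in the mutant, not called, and 0.82 in wild type. Its 72 h means were 847 in the mutant and 1596 in wild type.

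Of the 11, Trim16, a ubiquitin ligase with a part in the removal of damaged organelles, came nearest, with log2 1.07 in the mutant and 1.43 in wild type (adjusted p = 0.0569 in limma). It rose in the mutant by log2 1.56 against 24 h (adjusted p = 0.00732) and by log2 3.31 against 0 h, the largest difference of any member against 0 h, where the arrays stood apart. Zfand5, which activates the proteasome, differed by log2 1.10 in the mutant and 0.96 in wild type. Uxt, a prefoldin-like chaperone, differed by log2 0.91 in the mutant and 1.20 in wild type. Klhl3, an adaptor of a cullin ligase, differed by log2 0.65 in the mutant and 1.28 in wild type. Cdc23, a subunit of the anaphase-promoting complex, differed by log2 0.64 in the mutant and 1.42 in wild type. Its other tested probe sets did not move with it in wild type (log2 -0.34, -0.23, -0.49 and -0.42). In the mutant they gave log2 0.11, -0.45, -0.11 and 0.02. Spsb3, another ligase adaptor, differed by log2 0.51 in the mutant and 1.65 in wild type. The deubiquitinase Stambpl1 differed by log2 0.48 in the mutant and 0.94 in wild type and rose by log2 0.71 in the mutant against 24 h (adjusted p = 0.0270 in limma). Mindy3, also a deubiquitinase, differed by log2 0.05 in the mutant and 1.11 in wild type. The prefoldin subunit Pfdn4 differed by log2 0.12 in the mutant and 0.89 in wild type. Rnf41, a ubiquitin ligase that acts on growth factor receptors, differed by log2 -0.05 in the mutant and 1.78 in wild type. The large wild type value was seen in this probe set only. The other tested Rnf41 probe sets moved by log2 -0.05 to 0.27 in wild type and by -0.71 to 0.13 in the mutant.

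Atg4d, a protease that processes the ATG8 proteins of autophagosomes, was among the 6 members with the smallest mutant differences. In the mutant it gave 967 and 693 at 0 h, 653 and 489 at 24 h, 900.1 and 791 at 48 h, and 666 and 611 at 72 h. In wild type it gave 631 and 709.5 at 0 h, 899 and 827 at 24 h, 831 and 214 at 48 h, and 849 and 1019 at 72 h. Wild type 48 h replicate 1b was far below replicate 1a, so the wild type difference of log2 0.89 rests mainly on that array, and the mutant difference was log2 -0.34 (adjusted p = 0.708 in limma).

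Lipid and sterol metabolism held 8 genes with 1 rise. Acot1, a cytosolic thioesterase that frees fatty acids from coenzyme A, had mutant intensities of 748 and 779.9 at 0 h, 1238 and 1044 at 24 h, 659.5 and 630.1 at 48 h, and 1413 and 1609 at 72 h. In wild type they were 663 and 702 at 0 h, 2715 and 3004 at 24 h, 834 and 779.7 at 48 h, and 1639 and 1853 at 72 h. Both genotypes were brighter at 24 h than at 0 h, wild type far more so, and both were dimmer at 48 h and brighter again at 72 h. Acot1 rose by log2 1.09 ± 0.16 (SE, adjusted p = 0.00342 in limma) from 48 h to 72 h in the mutant, beside log2 1.0 in wild type. Gdpd1, which cleaves lysophospholipids and glycerophosphodiesters, differed by log2 0.56 in the mutant and 1.36 in wild type. Insig1 differed by log2 0.38 in the mutant and 1.47 in wild type. Slc44a1, a choline transporter, differed by log2 0.73 in the mutant and 0.87 in wild type. Agpat5, which acylates lysophosphatidic acid, differed by log2 0.72 in the mutant and 0.84 in wild type, and rose by log2 0.98 in the mutant against 24 h (adjusted p = 0.0152 in limma). Hsd17b7, an enzyme of cholesterol synthesis, differed by log2 0.60 in the mutant and 1.04 in wild type. The peroxisomal oxidase Acox2 differed by log2 0.14 in the mutant and 0.87 in wild type, and the cholesterol ester hydrolase Nceh1 by log2 0.01 in the mutant and 1.21 in wild type.

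Cytoskeleton, adhesion, cell division and kinases held 9 genes with 11 probe sets, and 4 of the probe sets rose. Cald1, caldesmon, binds actin and tropomyosin in smooth muscle and other cells. Its brighter probe set in the mutant had 2442 and 3520.1 at 0 h, 3908 and 4339.6 at 24 h, 5314 and 4553 at 48 h, and 11924 and 10653 at 72 h. On wild type arrays it had 3132 and 3027 at 0 h, 4232 and 3030.1 at 24 h, 3339 and 3411 at 48 h, and 6385 and 6044 at 72 h. The mutant 72 h arrays were far above all others, and the rise was log2 1.18 ± 0.20 (SE, adjusted p = 0.00928 in limma), beside log2 0.86 in wild type. The second Cald1 member differed by log2 1.09 in the mutant and 1.05 in wild type and was not called (adjusted p = 0.0824 in limma), and another Cald1 probe set of array B, not a member, differed by log2 1.12 in the mutant and 0.60 in wild type. The wild type 48 h mean of this last probe set already stood log2 1.22 above 0 h. Ccny, cyclin Y, activates kinases at the plasma membrane. Its bright probe set gave 2937 and 3717 at 0 h, 6138 and 4782 at 24 h, 4332 and 5533 at 48 h, and 8306 and 9435 at 72 h in the mutant. In wild type it gave 5904 and 5992 at 0 h, 5359 and 4463 at 24 h, 3111 and 3078 at 48 h, and 7403 and 7606 at 72 h. The wild type arrays dipped at 48 h and came back to little above 0 h, while the mutant arrays were lowest at 0 h. This probe set rose by log2 0.84 ± 0.19 (SE, adjusted p = 0.0369 in limma) in the mutant, beside log2 1.24 in wild type, and the second one by log2 0.91 ± 0.22 (SE, adjusted p = 0.0416 in limma), beside log2 1.16. In the other tested Ccny probe sets of array B, wild type at 48 h was near 0 h (log2 0.05 and -0.06). They differed between 72 h and 48 h by log2 0.28 and 0.18 in wild type and by 0.72 and 0.79 in the mutant, not called. Those tested on array C gave log2 -0.12, 0.54 and -0.37 in wild type and 0.82, 0.60 and -0.08 in the mutant, not called. Stk38l, a kinase of the NDR family in the Hippo network, had 484 and 269 on the mutant arrays at 48 h and 886 and 798 at 72 h. It rose by log2 0.98 ± 0.21 (SE, adjusted p = 0.0299 in limma), beside log2 1.75 in wild type. Its other tested probe sets were at log2 -0.24 and -0.04 in the mutant and -0.66 and 0.02 in wild type.

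The remaining genes of this group were not called. Pof1b, an actin-binding protein of epithelia, differed by log2 0.95 in the mutant and 1.19 in wild type and rose by log2 1.23 in the mutant against 24 h (adjusted p = 0.0189 in limma). Cadm3, an adhesion molecule, differed by log2 0.48 in the mutant and 1.05 in wild type. Cys1, a protein of primary cilia, differed by log2 0.29 in the mutant and 1.26 in wild type. Esco1 differed by log2 -0.13 in the mutant and 1.32 in wild type. Mtus2, a microtubule-associated protein, had mutant intensities of 500.3 and 1529 at 0 h, 697 and 1000.1 at 24 h, 494 and 703 at 48 h, and 249 and 271 at 72 h. Its wild type intensities were 1304 and 458 at 0 h, 218 and 1159 at 24 h, 653 and 277 at 48 h, and 1004 and 1217 at 72 h. Replicates of Mtus2 lay far apart in the mutant at 0 h and in wild type at 0 h, 24 h and 48 h, and the mutant difference of log2 -0.89 between 72 h and 48 h was not called (adjusted p = 0.520 in limma), beside log2 1.14 in wild type. Ccdc18, a coiled-coil protein, gave 406 and 767 at 0 h, 324 and 509 at 24 h, 574 and 467 at 48 h, and 193 and 365 at 72 h in the mutant. It gave 537 and 581 at 0 h, 371 and 116 at 24 h, 276 and 147 at 48 h, and 439.5 and 692 at 72 h in wild type. Its mutant 72 h arrays lay below the 48 h arrays while the wild type ones lay above, and the differences were log2 -0.71 in the mutant and 1.04 in wild type, the mutant one not called.

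All 4 members that act in transcription and chromatin had mutant differences of at least 0.5 on the log2 scale, and 0 were called in limma. Klf6, a zinc finger factor induced early in wounded tissue, was the second brightest member in wild type at 72 h. Its mutant intensities were 1111 and 3329 at 0 h, 5405 and 4772 at 24 h, 2341 and 4454 at 48 h, and 5767 and 8123 at 72 h. Wild type arrays had 3103 and 3517 at 0 h, 3550.3 and 3316 at 24 h, 3649 and 4853 at 48 h, and 6535 and 8971 at 72 h. Replicates lay far apart at 0 h and 48 h in the mutant, and the difference of log2 1.05 in the mutant and 0.84 in wild type was not called in the mutant (adjusted p = 0.215 in limma). Another Klf6 probe set, on array A, gave log2 0.60 in the mutant (adjusted p = 0.0626 in limma). Zfp948, a zinc finger protein, differed by log2 0.70 in the mutant and 1.05 in wild type and rose by log2 1.40 in the mutant against 24 h (adjusted p = 0.00449 in limma). Grhl1, a grainyhead-like factor of epithelia, differed by log2 0.67 in the mutant and 0.88 in wild type. Ino80c, a subunit of a chromatin remodelling complex, differed by log2 0.64 in the mutant and 1.34 in wild type, and rose by log2 0.83 against 24 h (adjusted p = 0.0317).

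Of the 4 mitochondrial proteins, 0 were called between 48 h and 72 h in the mutant in limma. Sdhb, the iron-sulfur subunit of succinate dehydrogenase, differed by log2 0.36 in the mutant and 1.05 in wild type. Lyrm4, which stabilises the enzyme of iron-sulfur cluster assembly, differed by log2 0.19 in the mutant and 0.86 in wild type. Mrs2, a magnesium channel, differed by log2 0.16 in the mutant and 1.50 in wild type, and Nipsnap3b by log2 0.0 in the mutant and 0.80 in wild type.

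Vesicle traffic, membrane proteins and receptors held 12 genes, and 0 were called in limma. Tmem161b, a membrane protein, had the fourth largest mutant difference of all members. In the mutant it had 330.3 and 288 at 0 h, 214 and 319 at 24 h, 335 and 451 at 48 h, and 1592 and 811 at 72 h. In wild type it had 152 and 459 at 0 h, 272 and 231 at 24 h, 126 and 286 at 48 h, and 540.4 and 603 at 72 h. Both mutant 72 h arrays were above all earlier mutant arrays, but they lay far apart, and the difference of log2 1.30 in the mutant and 1.12 in wild type was not called in the mutant (adjusted p = 0.0809 in limma). Chic2 differed by log2 1.12 in the mutant and 0.82 in wild type. Ankrd28, a regulatory subunit of a protein phosphatase, differed by log2 0.81 in the mutant and 1.03 in wild type, and rose by log2 1.44 in the mutant against 24 h (adjusted p = 0.00844 in limma). The small GTPase Rabl3 differed by log2 0.58 in the mutant and 0.89 in wild type. Rab22a, a small GTPase of early endosomes, differed by log2 0.36 in the mutant and 0.81 in wild type. Its other array B probe sets did not move with it, at log2 -0.58, -0.16 and -0.42 in the mutant and -0.37, -0.001 and -0.27 in wild type. In the same order, their wild type 48 h means stood log2 1.22, 0.25 and 0.79 above 0 h. One on array C differed by log2 0.18 in the mutant and 0.26 in wild type. Tmem181a differed by log2 0.57 in the mutant and 2.15 in wild type. The lysosomal protein Tmem106b differed by log2 0.47 in the mutant and 0.96 in wild type. Of its other array B probe sets, 1 differed by log2 -0.58 in the mutant and -0.29 in wild type. A dimmer one differed by log2 0.31 in the mutant and 0.38 in wild type, and neither was called in the mutant. Mmd, found first in maturing macrophages, differed by log2 0.03 in the mutant and 0.85 in wild type. Rims1, a scaffold of vesicle release, differed by log2 -0.11 in the mutant and 0.98 in wild type. Nt5e, the surface enzyme CD73 that makes adenosine, differed by log2 -0.16 in the mutant and 1.0 in wild type.

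Hrh3 and Atp6v1g2, of the same group, had negative mutant differences that were not called. Hrh3, the histamine H3 receptor, was the dimmest member in wild type at 72 h. Its mutant intensities were 409 and 351 at 0 h, 48.4 and 169 at 24 h, 222 and 404 at 48 h, and 104 and 298 at 72 h. Its wild type intensities were 453 and 186 at 0 h, 198 and 298 at 24 h, 142 and 285 at 48 h, and 475 and 530.3 at 72 h. The mutant 72 h and 48 h arrays overlapped, and the differences were log2 -0.46 in the mutant and 0.92 in wild type. Atp6v1g2, a subunit of the proton pump of vesicles, gave 781 and 893 at 0 h, 624 and 311 at 24 h, 683 and 619 at 48 h, and 408 and 119 at 72 h in the mutant. It gave 543 and 509 at 0 h, 798 and 938 at 24 h, 269 and 155 at 48 h, and 582 and 872 at 72 h in wild type. All mutant 72 h values lay below those at 48 h and all wild type ones above, and the differences were log2 -1.10 in the mutant and 1.34 in wild type. The mutant difference had an adjusted p of 0.122 in limma, and was called without mutant 72 h replicate 1a (log2 -1.67, adjusted p = 0.0361), which leaves 1 array at 72 h that is assumed to vary like the other groups.

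For 5 genes no role is given. Ccdc9 differed by log2 0.94 in the mutant and 0.92 in wild type, A430027H14Rik by log2 0.93 in the mutant and 0.88 in wild type, Lzic by log2 0.52 in the mutant and 0.97 in wild type and Ttc9 by log2 0.14 in the mutant and 1.09 in wild type. Fam172a had the lowest mutant difference of all members. Its mutant intensities were 529 and 135 at 0 h, 393 and 381 at 24 h, 1189 and 1381 at 48 h, and 548 and 507 at 72 h. Its wild type intensities were 2211 and 1248 at 0 h, 894 and 965 at 24 h, 409.8 and 333 at 48 h, and 857 and 675 at 72 h. The mutant was brightest at 48 h and wild type dimmest there, and the differences were log2 -1.11 in the mutant and 0.84 in wild type, with an adjusted p of 0.126 in the mutant. The 3 other tested probe sets of Fam172a moved by log2 0.07 to 0.20 in the mutant and by 0.24, -0.004 and -0.001 in wild type.

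**Figure D4:**
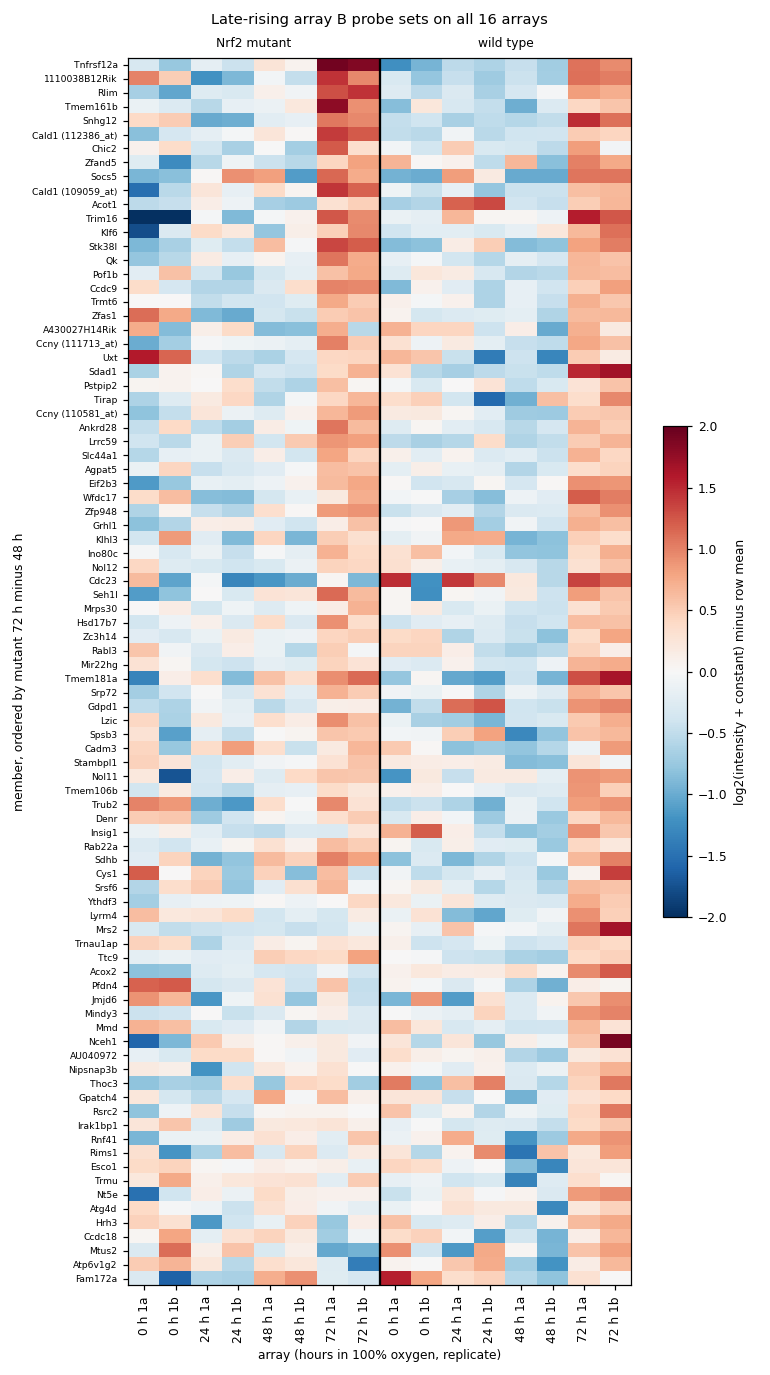
Rows are the 88 late-rising probe sets, ordered by the mutant 72 h minus 48 h difference, and columns are the 16 arrays of type B, with the Nrf2 mutant left of wild type. Colour is the log2 value minus the row's mean, and values beyond 2 in either direction take the end colour. The wild type 72 h columns are red in nearly all rows, the mutant 72 h columns are red in the upper rows, and the mutant 0 h columns hold both deep red and deep blue rows, such as Uxt and Trim16.

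Measured against 24 h in place of 48 h, more members rose in the mutant. Of the 88, 31 (29 genes) rose, 0 fell and 57 were not called, with 51 at an unadjusted p under 0.05, where 2.84% of all tested probe sets rose and 3.62% fell. The median was log2 0.69, against 0.03 over all. Of the 12 that rose from 48 h, 11 were among the 31, and Acot1 was not (log2 0.37, adjusted p = 0.176 in limma). The largest rises were those of 1110038B12Rik (log2 2.26), Tnfrsf12a (log2 2.20) and Snhg12 (log2 2.0). Tmem161b (log2 1.71), Ccdc9 (log2 1.56), Nipsnap3b (log2 0.94), Denr (log2 0.97), Tmem106b (log2 0.76), Nol12 (log2 0.78) and Ttc9 (log2 0.82) joined them. Leaving out a 72 h array of the mutant gave 14 (replicate 1a) or 15 (replicate 1b). Leaving out a 24 h array gave 14 (replicate 1a) or 13 (replicate 1b). With the 4 arrays of these groups alone 16 were called, 15 higher and 1 lower.

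Against the mutant 0 h arrays, 37 members were higher at 72 h and 4 lower, where 14.7% of all tested probe sets were higher and 15.6% lower. The 4 were Atp6v1g2 (log2 -1.41), Pfdn4 (log2 -1.16), Uxt (log2 -0.96) and Mmd (log2 -0.95). After Trim16, the largest rises were those of Tnfrsf12a (log2 2.43) and a Cald1 probe set (log2 2.33). The 3 small nucleolar RNA hosts, all risen from 24 h and from 48 h, gave log2 0.55 for Snhg12 (adjusted p = 0.0218 in limma), and 1110038B12Rik and Zfas1 were not called against 0 h (adjusted p = 0.179 and 0.152). The 41 called members became 20 when replicate 1a of the mutant 72 h group was left out, and 26 when replicate 1b was. The 0 h arrays stood apart in correlation and in the Gapdh ratio, and the part of RNA quality in these differences was not tested.

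Between 24 h and 48 h, 2 members rose in the mutant and 0 fell, with 21 at an unadjusted p under 0.05 in limma, where 0.145% of all tested probe sets rose and 0.224% fell. Sdhb had 778 and 884 on the mutant arrays at 24 h and 2576 and 2275 at 48 h, and rose by log2 1.41 (adjusted p = 0.0377). Trub2, whose values are given above, rose by log2 1.24 with the same adjusted p. Leaving out either 48 h array, or replicate 1a of 24 h, gave 0 called members, and leaving out replicate 1b of 24 h gave 1.

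Wild type arrays at 24 h were not used by the rule, so the genotypes can be compared there. Mutant minus wild type, 1 member was higher, 2 were lower and 85 were not called, where 0.134% of all tested probe sets were higher and 0.123% lower. Acot1 was lower by log2 -1.24 ± 0.16 (adjusted p = 0.00524 in limma), with the arrays given above. Gdpd1 had 1113 and 1013 on the mutant arrays and 2693 and 2995 on the wild type arrays, a difference of log2 -1.32 ± 0.17 (adjusted p = 0.00769). Lyrm4 had 889.8 and 988 on the mutant arrays and 342 and 289.9 on the wild type arrays, a difference of log2 1.27 ± 0.23 (adjusted p = 0.0487). When replicate 1b of either genotype was left out, 0 of the 3 were called. The median over the members was log2 -0.11, against -0.02 over all tested probe sets.

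At 48 h and 72 h the wild type arrays had chosen the members, so the genotype differences are a description. At 48 h the mutant was higher in 74 of 88 members, with a median of log2 0.35, where 49.7% of all tested probe sets were higher. Fam172a (log2 1.51), Atp6v1g2 (log2 1.22) and Esco1 (log2 1.18) were furthest above wild type. At 72 h the mutant was higher in 31 members, where 47.8% of all tested were, with a median of log2 -0.14. Tnfrsf12a (log2 0.87), Tmem161b (log2 0.87) and both Cald1 probe sets (log2 0.85 and 0.69) were furthest above wild type, and Cdc23 (log2 -1.68), Mtus2 (log2 -1.68) and Mrs2 (log2 -1.61) furthest below. The other tested Cdc23 probe sets had 72 h means of 4449, 1215, 291 and 59 in wild type and 4872, 1434, 277 and 72 in the mutant. The median of the mutant step minus the wild type step was log2 -0.60, a value that the choice of large wild type steps pulls below 0.

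The member genes have other probe sets, which the rule did not choose. On array A, 23 were tested, and 2 rose in the mutant between 48 h and 72 h, where 2.14% of all array A probe sets rose. They were an Acot1 probe set (log2 0.91 ± 0.16, adjusted p = 0.00813 in limma) and a Lrrc59 probe set (log2 0.59 ± 0.14, adjusted p = 0.0365). On array B, 42 other probe sets were tested and 1 rose, again of Lrrc59 (log2 0.94 ± 0.16, adjusted p = 0.00987). In wild type the 48 h means of the called Lrrc59 probe sets stood log2 0.58 (array A) and 0.79 (array B) above 0 h. A further Lrrc59 probe set of array B, not called, gave log2 0.52 there. These lie above the limit of 0.5 in the rule, whereas the Acot1 probe set of array A gave log2 0.22. On array C, 39 were tested and 0 rose, with 5 at an unadjusted p under 0.05 in limma, where 0.064% of all rose. Their medians in the mutant were log2 0.16 on A, 0.18 on B and 0.17 on C, smaller than the median of 0.57 of the members. In wild type the median of the 62 on arrays A and C was log2 0.17, and 12 of the 62 reached 0.5, although the wild type RNA is that of the same groups. Probe sets of 1 gene thus often differed in size and at times in sign. Of the 88 members, 15 have a name ending in more than _at, the mark of probe sets with shared or relaxed probes, as have 1709 of 12411 array B probe sets.

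Gene lists of pathways active in injured lung held 1 member, Tnfrsf12a, in the list of injured epithelium and keratins. Of the 17 other tested genes of that list, 1 rose and 1 fell in the mutant between 48 h and 72 h, and 7 rose in wild type. Over all 13821 genes measured, 1.3% rose and 1.74% fell in the mutant and 0.941% rose in wild type. Krt8, a keratin of simple epithelia, rose in both (log2 0.70 in the mutant and 0.92 in wild type), and Lamb3, a laminin chain, fell in the mutant (log2 -1.04). Of 25 acute phase and STAT3 genes, 8 rose in the mutant and 8 in wild type, among them Saa3 (log2 1.85 in the mutant and 1.06 in wild type) and Serpina3n (log2 1.43 in the mutant and 1.88 in wild type). Matrix and wound genes gave 6 rises and 1 fall of 22 in the mutant, with Tnc at log2 1.67 and Ccn1 at log2 1.27, and 5 rises and 1 fall in wild type. ATF4 and amino acid stress genes gave 4 rises and 1 fall of 31 in the mutant, with Atf4 at log2 0.79, and 9 rises in wild type. Ribosome biogenesis genes gave 1 rise of 24 in the mutant, Myc (log2 1.34), and 4 in wild type. Of 27 NRF2 targets 0 rose and 1 fell in the mutant in limma, and 3 rose in wild type, among them Gclc (log2 1.02, beside -0.45 in the mutant). In the mutant, p53 targets gave 2 rises of 22, hypoxia-inducible genes 2 rises and 1 fall of 21, actin cytoskeleton genes 1 rise of 19, and cell cycle genes 0 of 19.

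Markers of cell types moved as well. The summed intensity of 9 neutrophil markers on array A was 6725 to 7942 in the mutant at 72 h and 6377 to 6640 at 48 h, and 18100 to 18730 in wild type at 72 h and 20031 to 20807 at 48 h, with 0 of 9 called in limma in either genotype. The sum of 10 macrophage markers was 49393 to 49794 in the mutant at 72 h and 39845 to 41206 at 48 h, with Cd68 higher (log2 0.67, adjusted p = 0.0420 in limma). In wild type the macrophage sum was 44450 to 48622 at 72 h and 44865 to 49874 at 48 h. Of 8 alveolar type 2 markers 3 fell in the mutant, among them Slc34a2 (log2 -1.21), and of 7 alveolar type 1 markers 2 fell, among them Hopx (log2 -1.09). The other type 2 markers were not called. Of these, Sftpc (log2 0.47), Sftpd (log2 0.46), Sftpb (log2 0.26) and Sftpa1 (log2 0.03) were above 0 and Lamp3 (log2 -0.23) below. The mutant median was log2 -0.10 over the type 2 markers and -0.49 over the type 1 markers. No marker of these 4 cell types was called in wild type between 48 h and 72 h. Of 5 fibroblast markers, Col3a1 fell in the mutant (log2 -0.80) and Col1a1 in wild type (log2 -0.93). The others were not called. In the mutant, Dcn (log2 0.49) and Pdgfra (log2 0.18) were above 0 and Col1a1 (log2 -0.55) and Lum (log2 -0.07) below. In wild type, Dcn (log2 0.19) and Pdgfra (log2 0.07) were above 0 and Col3a1 (log2 -0.45) and Lum (log2 -0.43) below. Of 5 cardiac muscle markers, the atrial myosin light chain Myl7 fell in both (log2 -1.0 in the mutant and -0.68 in wild type). The other cardiac markers were not called. In the mutant, Actc1 (log2 0.14), Tnnt2 (log2 0.11) and Nppa (log2 0.05) were above 0 and Myh6 (log2 -0.26) below. In wild type they were all below 0, from log2 -0.23 (Actc1) to -0.75 (Myh6). The part of cell composition in the members' differences was not tested.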

How the data were processed

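The authors deposited 1 linear intensity value per probe set and array. Which tool and genome build lie behind them is not given in the sources used here. On the 16 arrays of type B the mean, trimmed by 2%, lay between 800.17 and 800.21, so the deposited intensity values share a scale, which was kept. The samples fall into 8 groups of genotype and time, with 46 arrays in all (14 of type A, 16 of B and 16 of C). Intensities were put on a log2 scale after adding a constant near the 25th percentile of array B (126.1), which makes differences of dim probe sets smaller. Probe sets above the 40th percentile (272.6 on array B) on at least 2 arrays were tested, 8948 on B. The tests used limma 3.58.1 (R 4.3.3) with 1 mean per group and all groups in 1 fit per array type, two-sided, and Benjamini-Hochberg adjustment over the tested probe sets of an array type. A call is an adjusted p under 0.05. The fit was tested on simulated data. The number of arrays limits the precision.

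The members, the gene lists, the comparisons and the alternatives were chosen with earlier results of these data known, and the role of each member was assigned after its membership was known. No member was tested in a comparison that the rule used. Other genes were. By the rule for named genes, every member is named with both 72 h minus 48 h differences, and all arrays are given for the 6 largest and 6 smallest mutant differences, the 6 brightest members and members of a gene list. Other called genes are named with the arrays compared or not at all, up to 3 per list. Symbols are those of the probe set annotation, and gene types and start regions those of RefSeq on GRCm38.p6. A further gene was left out of the members by the rule and is not reported here. Replicate numbers were not taken to pair the samples, since the labels tie them to nothing shared and the correlation of same-numbered deviations was over 0.1 in 18 of 28 pairs of groups, not in all (median 0.127, range -0.098 to 0.245, and 0.2 for the mutant at 72 h and 48 h). The alternatives were another added value, a floor, quantile normalization, other filters, fewer groups in the fit, a replicate block, a trend with robust eBayes, adjustment over all array types, leaving out each replicate, and, added after seeing the data, leaving out probe sets whose name ends in more than _at.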

Additional observations from a re-analysis of the deposited data

Results flagged for a closer look

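In 6 members every array moved in opposite directions in the genotypes, with both mutant arrays lower at 72 h than at 48 h and both wild type arrays higher. The members were chosen for the wild type direction, so only the mutant direction is informative, and over all tested probe sets of array B 24% had both mutant 72 h arrays below both 48 h arrays. The difference between genotypes was not tested in any of them, since the rule used the wild type arrays. The mutant step minus the wild type step was log2 -2.44 in Atp6v1g2, -2.03 in Mtus2, -1.95 in Fam172a, -1.75 in Ccdc18, -1.23 in Atg4d and -1.17 in Nt5e. The mutant difference was not called in any of the 6 with all arrays in limma, with adjusted p of 0.122 for Atp6v1g2 and 0.126 for Fam172a as the lowest.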

How the results depend on the processing

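The count of members called between 48 h and 72 h in the mutant was 10 to 17 under alternatives with all arrays of these groups, except 3 on the arrays of the compared groups alone, and 4 to 8 with a replicate left out. From 24 h to 72 h it was 16 on the compared groups alone and 13 to 15 with a replicate left out. From 0 h to 72 h it was 20 to 35 with a replicate left out, and a fit without the mutant 0 h arrays is not possible there. From 24 h to 48 h it was 0 with 32 added, 1 with a floor in place of the added constant, 1 after quantile normalization, 0 without a filter, 4 with the filter at the 60th percentile, 0 on the compared groups alone and 0 to 1 with a replicate left out. In limma, these counts of 0 go with 13 to 24 members at an unadjusted p under 0.05. Mutant minus wild type at 24 h it was 0 on the compared groups alone (18 at an unadjusted p under 0.05) and 0 to 2 with a replicate left out. The replicate block gave 15, 35, 41, 2 and 2 called members in the 5 comparisons in the order above, and the numbers were not taken to pair the samples. Without probe sets whose names end in more than _at, 11 members were called from 48 h, 30 from 24 h and 36 from 0 h, an alternative chosen after seeing the data. For the single members given with all arrays or called, the difference from 48 h to 72 h kept its direction in every alternative: 262 values kept their side of the threshold, 43 lost the call and 2 gained it. The gains were Atp6v1g2 without mutant 72 h replicate 1a and Fam172a without the mutant 0 h arrays (adjusted p = 0.0252). The cause of these changes was not tested, apart from the fewer arrays that some alternatives leave. With 2 arrays a group, differences of dim or uneven members such as Mtus2, Hrh3 and Socs5 are not resolved.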

Other observations

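Since 3 long non-coding genes that contain small nucleolar RNA genes rose among the members, their other probe sets and the other such genes on the 3 array types were looked up, a choice made after seeing the data. There were 28 further probe sets of 22 genes. In the mutant 17 of the 28 had a 72 h minus 48 h difference above 0, 3 rose and 0 fell in limma, where 50% of all 21856 tested probe sets with 1 symbol were above 0, 1.13% rose and 1.41% fell. In wild type 20 were above 0 and 2 rose, where 48.5% were above 0 and 0.737% rose. Snhg1 rose in both genotypes, by log2 1.05 in the mutant (adjusted p = 0.00734) and by log2 1.06 in wild type (adjusted p = 0.0128). Epb41l4aos rose in the mutant by log2 0.77 (adjusted p = 0.0348), and was not called in wild type (log2 0.71, adjusted p = 0.0655). A dim probe set of 2410006H16Rik rose in the mutant by log2 1.02 (adjusted p = 0.0352), and its brighter probe set gave log2 0.76 (adjusted p = 0.119). Gas5 rose in wild type by log2 0.88 (adjusted p = 0.0214), beside log2 0.61 in the mutant (adjusted p = 0.0722). Snhg3 gave log2 -0.50 in the mutant and 1.41 in wild type, neither called, so the hosts did not all move the same way. Whether the genotypes differ in these steps was not tested.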
